A study of Mus musculus and Acomys cahirinus with 25 samples.

Results

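The regenerating wound epidermis of the spiny mouse (Acomys), a rodent that regrows hair follicles inside large skin wounds, was compared between post-wound day (PWD) 14 and PWD21. The members were the 2 epidermis libraries labelled PWD14 and the 2 labelled PWD21, chosen by their tissue and day labels, 4 of the 25 bulk RNA-seq libraries of the series. Single epidermis libraries of unwounded skin (PWD0) and of PWD28 wounds gave context without a test, and 6 spiny mouse dermis libraries served as a tissue reference. All animals were wild type, young and captive bred. The study used both sexes, but its sample list does not give the sex behind each library. Full-thickness wounds were cut in the dorsal skin, the whole wound was taken, and the epidermis was peeled off by hand after cold trypsin-EDTA, while PWD0 skin was shaved and not wounded. No transgene or drug was used in these groups. The duplicates are described as independent, but the labels do not tie libraries to animals, so p-values measure the spread between these libraries. In the study's own sample list the PWD14 libraries carry a slightly later day and the PWD21 libraries a slightly earlier one. The interval compared may thus be shorter than labelled. The labels were used. Reads were mapped to the laboratory mouse genome, so each value is the part of a spiny mouse transcriptome that could be placed on laboratory mouse genes.

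When skin is wounded, keratinocytes at the wound edge switch from the differentiation program to a migrating one, marked by the keratins Krt6, Krt16 and Krt17, and close the defect before they stratify and rebuild a cornified barrier. In skin that regenerates, new hair follicles then arise in the closed epidermis from placodes, local thickenings driven by Wnt, Eda and hedgehog signals, and later build the hair shaft and the inner root sheath, the cuff of cells that molds the shaft, from their own keratins. The study stained spiny mouse wounds for Twist1, Zeb2, Mmp9, E-cadherin (Cdh1) and P-cadherin (Cdh3). Twist1 and Zeb2 are transcription factors best known from the epithelial-mesenchymal transition, in which epithelial cells loosen and take up mesenchymal traits. The comparison of PWD14 with PWD21 shows how such genes stood in the epidermis at an earlier and a later wound day.

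The wound keratins Krt6a, Krt16 and Krt17, late cornified envelope genes such as Lce3f, the defense gene S100a9 and the EGF receptor ligand Areg were higher at PWD14. Most hair shaft and inner root sheath keratins, the interferon-stimulated genes that were called, the hedgehog target Gli1, the desmosome gene Dsc1 and most called cholesterol enzymes were higher at PWD21. Reads on genes numbered between 12902800 and 33831242 in the 4 libraries, where 3 counts, the floor used here, stand for 0.320, 0.249, 0.0858 and 0.160 CPM. CPM are counts per 1000000 reads on genes, with library sizes adjusted by the trimmed mean of M values (TMM). Of 12889 genes that passed a filter on low counts, 46.6% were called by the quasi-likelihood test of edgeR at an adjusted p under 0.05. PWD14 was the higher day for 23.4% of the tested genes and the lower day for 23.2%. The median log2 fold change was -0.04, where every fold change is PWD14 minus PWD21 and is given ± its SE. In 77% of the tested genes the 2 groups did not overlap. Calls with at least an 8-fold difference were fewer on the PWD14 side, 35 genes, than on the PWD21 side, 212 genes. The floor in CPM was higher at PWD14, and genes near 0 there that passed the filter through PWD21 can take very large fold changes. Their share of the 212 genes was not tested.

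The split between the directions rested on the scaling. The 10 most abundant genes took 18.7% and 16.5% of the reads at PWD14 and 11.8% and 10.7% at PWD21. With library size alone in place of TMM, the median of all tested genes moved to -0.59, and the higher share of the calls fell from 50.2% to 18.9%, with 1335 genes higher and 5721 lower. Counts given with library size alone further on are therefore to be read against that shift.

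Transcript length and GC content moved with the comparison as well. With the tested genes cut into 10 equal bins by length, 61.5% of the shortest bin were higher at PWD14 and its median log2 fold change was 1.01. In the bin with the highest GC content the median was 0.53. Across the 12566 genes with a known length, Spearman's rho of the fold change was -0.24 with length and 0.23 with GC content, as a description over genes, which are not replicates. Such trends also ran between replicates, with rho of 0.23 and -0.37 for length and GC content between the PWD21 libraries and of -0.09 and -0.23 between the PWD14 libraries. A fit with offsets that take out the length and GC trends within each library, chosen after seeing the data, called 24.8% of genes higher and 17.6% lower. With offsets for length alone, 60.3% of the calls were higher. For each list below, the numbers of higher and of lower members, in that order, are repeated with the length and GC offsets, with library size alone and without 1 library wherever either number moved by over 1.5 times and by at least 2 genes. Every such count from the main fit is to be read against the 23.4% of all tested genes that were higher and the 23.2% that were lower.

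**Figure D1:**
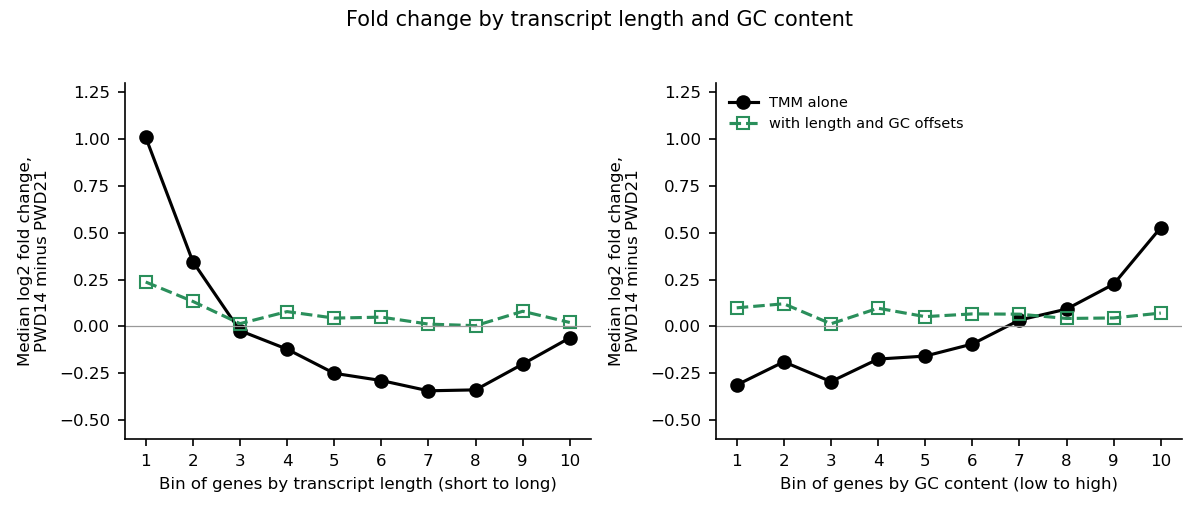
Median log2 fold change (PWD14 minus PWD21, y axis) of the tested genes in 10 bins by transcript length (left) and by GC content (right), from the fit with TMM alone and from the fit with length and GC offsets. The shortest bin sits at 1.01 with TMM alone and at 0.24 with the offsets.

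The labelled tissue held against its markers. Krt14 and Krt5, the keratin pair of basal keratinocytes, stood at 63813 and 48209 CPM and 13239 and 12655 CPM at PWD14 and at 18452 and 14604 CPM and 12013 and 11077 CPM at PWD21. On one scale for the 12 spiny mouse libraries, the summed level of 12 keratinocyte markers ran from 33937 to 132861 CPM in epidermis and from 724 to 8545 CPM in dermis, and that of 20 fibroblast markers ran from 1124 to 2074 CPM in epidermis and from 67972 to 188526 CPM in dermis. The 2 tissues did not overlap on either list.

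The hair shaft and inner root sheath genes had the lowest median fold change of the lists. Of 34 listed genes, 33 passed the filter, of which 28 were lower and 2 higher at PWD14, and their median log2 fold change was -3.63 (-3.66 with the length and GC offsets), against -0.04 for all tested genes. Of these genes, 13 had fewer than 10 counts in both PWD14 libraries and passed the filter through PWD21, where a gene that passes has to be higher, so the counts describe the list. In a bulk library, fewer cells of a type and less RNA per cell cannot be told apart.

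The inner root sheath keratins were the most abundant of the genes that fell. Krt71, a type II keratin of the inner root sheath (chr15:101733949-101743097 in GRCm38), stood at 6.93 and 14.0 CPM at PWD14 and at 318 and 140.5 CPM at PWD21. Every PWD21 library lay above every PWD14 library (log2 fold change -4.37 ± 0.41, adjusted p = 5.17e-05). Krt27, its type I partner, stood at 9.81 and 13.0 against 212 and 95.8 CPM (log2 fold change -3.69 ± 0.36, adjusted p = 5.27e-05). Krt73, a type II keratin of the inner root sheath cuticle, stood at 3.41 and 5.07 against 78.3 and 49.9 CPM (log2 fold change -3.84 ± 0.31, adjusted p = 5.05e-05). In all 3 genes the first PWD21 library was well above the second, and both were above the PWD14 libraries.

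The keratins of the shaft cortex and cuticle were near the floor at PWD14. Krt81, a type II cortex keratin, stood at 0.533 and 0.664 CPM at PWD14 and at 24.6 and 27.4 CPM at PWD21 (log2 fold change -5.34 ± 0.40, adjusted p = 5.05e-05). Krt35, a type I keratin of the hair matrix and early cortex, stood at 0.960 and 3.07 against 34.3 and 27.7 CPM (log2 fold change -3.81 ± 0.37, adjusted p = 5.27e-05). Krt33a reached 1.07 and 1.41 against 23.9 and 29.0 CPM (log2 fold change -4.32 ± 0.36, adjusted p = 5.05e-05). In each of these both PWD21 libraries were high and lay close together, and both PWD14 libraries were low. Krt33b had no count in either PWD14 library and 8.04 and 9.57 CPM at PWD21, which is at least 30.9-fold lower at PWD14 with the floor of 3 counts in each library. Krt83 (2 and 6 counts at PWD14, 19.4 and 22.0 CPM at PWD21) and Krt87 (0.640 and 0.748 against 35.3 and 39.7 CPM) fell with them, but the hair keratins Krt81, Krt83, Krt86 and Krt87, and likewise Krt31, Krt33a, Krt33b and Krt34, are near copies of each other, and reads that fit several of them are not counted, so the split among them is uncertain. Krtap8-1, a keratin-associated protein that crosslinks the shaft, stood at 1.60 and 1.33 against 21.1 and 16.1 CPM (log2 fold change -3.63 ± 0.38, adjusted p = 6.49e-05). Tchh, trichohyalin, the matrix protein of the inner root sheath, stood at 6.19 and 9.72 against 108 and 51.1 CPM (log2 fold change -3.25 ± 0.37, adjusted p = 9.35e-05).

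The promoters of Krt34 and Krt31, type I shaft keratins, are shown because they hold CTTTGAA, the core letters bound by Tcf/Lef factors. Krt34 stood at 0 and 0.0831 against 8.46 and 8.82 CPM (adjusted p = 6.70e-05). Krt31 stood at 0.320 and 0.332 against 12.9 and 12.4 CPM (adjusted p = 5.17e-05). In the 250 bases before the RefSeq start (GRCm38.p6, laboratory mouse), searched on both strands, the letters occurred in 5 of the 25 list members that had a window (20%) and in 1253 of all 27025 windows (4.64%). The members with a match were Krt31, Krt32, Krt33b, Krt34 and Krtap11-1, all lower at PWD14. Each had a match between 240 and 247 bases before the start. Of the 25 members with a window, 21 were lower at PWD14 in any case, and 5 of those 21 held a match (23.8%). Krt31, Krt33b and Krt34 are near copies of each other, so their matches cannot be taken as separate observations. The match is a description of letters in the laboratory mouse genome and was not tested for use. The windows of Krt34, at chr11:100041555-100041804 (minus strand), and Krt31, at chr11:100050552-100050801 (minus strand), are written 5′ to 3′ toward the gene, with each match in capitals.
Krt34: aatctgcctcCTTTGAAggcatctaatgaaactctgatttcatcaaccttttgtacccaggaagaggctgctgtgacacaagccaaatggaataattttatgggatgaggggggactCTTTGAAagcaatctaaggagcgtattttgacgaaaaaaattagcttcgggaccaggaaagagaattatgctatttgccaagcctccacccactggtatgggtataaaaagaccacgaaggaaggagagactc
Krt31: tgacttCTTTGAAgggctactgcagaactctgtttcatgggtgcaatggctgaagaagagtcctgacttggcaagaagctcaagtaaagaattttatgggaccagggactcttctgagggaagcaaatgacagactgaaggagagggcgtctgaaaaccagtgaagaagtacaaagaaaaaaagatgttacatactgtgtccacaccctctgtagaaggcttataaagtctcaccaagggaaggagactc

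A few genes of the list went the other way or did not pass the test. Krt75, a keratin of the companion layer that also appears in activated epidermis, stood at 2697 and 2691 against 2256 and 1856 CPM (log2 fold change 0.45 ± 0.16, adjusted p = 0.0425), a small difference that turned to -0.10 with library size alone and lost its call without the second PWD21 library (adjusted p = 0.311) or without either PWD14 library (adjusted p = 0.0908 and 0.0884). Sox21, a transcription factor of the hair cuticle, stood at 72.7 and 65.4 against 55.8 and 48.2 CPM (log2 fold change 0.47 ± 0.18, adjusted p = 0.0499), and lost its call without the first PWD14 library (adjusted p = 0.118), without either PWD21 library (adjusted p = 0.143 and 0.379) and in DESeq2 (adjusted p = 0.071). With library size alone its log2 fold change was -0.09. Krt79, a keratin of the upper follicle and sebaceous duct, overlapped between the days at 1042 and 685 against 974 and 801 CPM. Among 33 tested genes, 30 had their highest value of all 6 epidermis libraries in the single PWD28 library, where Krt71 reached 6222 CPM and Krt81 reached 492 CPM. In one fit of all 12 spiny mouse libraries, in which the spread is shared with the dermis, 5 genes of the list were called lower, and with at least 10 counts required in every library 11 were. The higher and lower calls were 0 and 29 with library size alone, 0 and 27 without the first PWD14 library and 0 and 25 without the second PWD21 library.

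**Figure D2:**
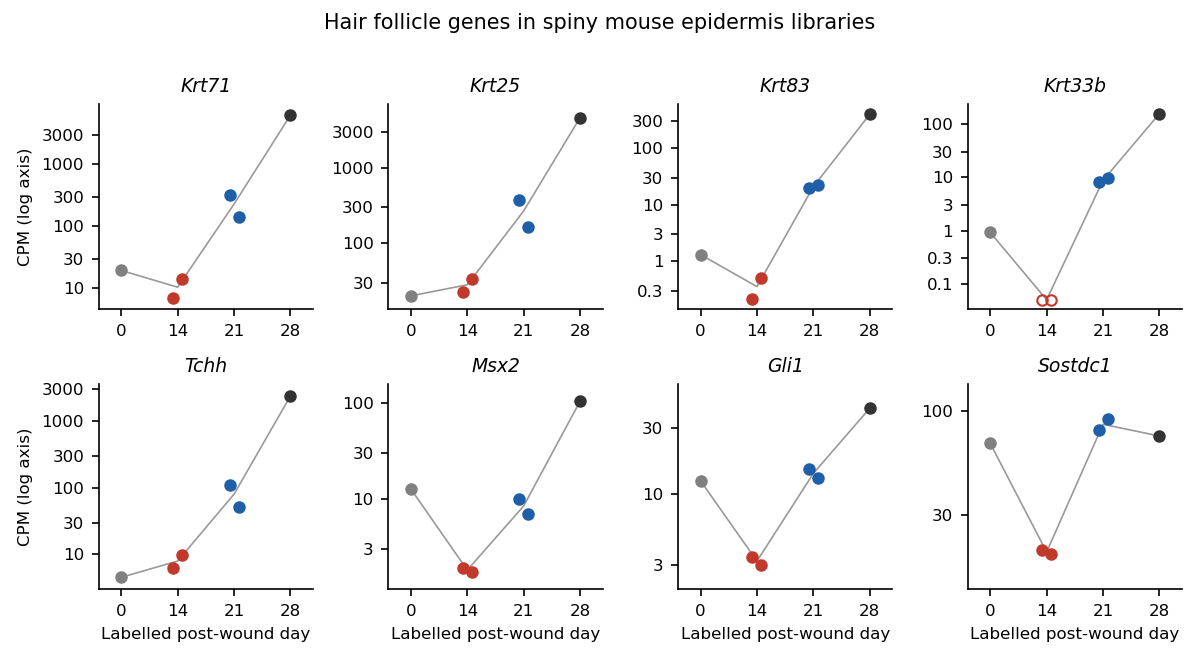
CPM (log axis) of 8 hair follicle genes in each epidermis library by labelled day (x axis), with a line through the mean of each day. PWD14 libraries are red, PWD21 libraries blue, and the single PWD0 and PWD28 libraries gray and black, and the open circles of Krt33b mark values of 0, drawn at 0.05 CPM. Both PWD14 libraries of Krt71 (6.93 and 14.0 CPM) lie below both PWD21 libraries.

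Placode and hedgehog genes were lower at PWD14 in part of the list. Of 22 tested members, 9 fell and 2 rose (median -0.89). The numbers were 2 and 15 with library size alone and 2 and 5 without the first PWD21 library. Gli1, a transcription factor and direct target of hedgehog signaling, stood at 3.41 and 2.99 CPM at PWD14 and at 15.2 and 12.9 CPM at PWD21 (log2 fold change -2.09 ± 0.32, adjusted p = 4.74e-04). Ptch1, the hedgehog receptor and also a target, stood at 1.60 and 1.99 against 8.66 and 8.45 CPM (log2 fold change -2.17 ± 0.38, adjusted p = 0.00101). The ligand Shh itself was scarce, at 2.03 and 2.82 against 7.55 and 3.47 CPM, and did not pass the test (adjusted p = 0.0672), although its groups did not overlap and it passed without the second library of either day (adjusted p = 0.0399 and 0.0252). Sostdc1, a secreted Wnt and BMP antagonist made around placodes, stood at 19.9 and 19.0 against 80.4 and 90.8 CPM (log2 fold change -2.07 ± 0.19, adjusted p = 5.17e-05). Lef1, the Wnt effector of placodes, stood at 1.17 and 1.99 against 5.80 and 4.92 CPM (log2 fold change -1.67 ± 0.43, adjusted p = 0.00886). The Lef1 call was lost without the first PWD21 library (adjusted p = 0.0618).

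Some placode genes ran against this. Sox9, a transcription factor of hair follicle progenitors, was higher at PWD14 (93.7 and 90.8 against 40.3 and 29.6 CPM, log2 fold change 1.45 ± 0.19, adjusted p = 2.16e-04), as was Pthlh, parathyroid hormone-like hormone (68.4 and 73.1 against 35.8 and 13.7 CPM, log2 fold change 1.55 ± 0.33, adjusted p = 0.00326). Ctnnb1, beta-catenin, overlapped between the days at 987 and 1025 against 1035 and 995 CPM (log2 fold change 0.05 ± 0.15, adjusted p = 0.811). Among 13 tested hair follicle stem cell genes, Sox9 and Nfib rose, Lhx2 (2.03 and 5.98 against 12.6 and 7.86 CPM) and Lrig1 (20.5 and 19.7 against 38.0 and 47.0 CPM) fell, and Krt15, a keratin of the bulge and of basal cells, did not pass the test at 381 and 343 against 352 and 323 CPM. The calls for Lhx2 and Nfib were lost without the first PWD14 library (adjusted p = 0.0976 and 0.0697) or the first PWD21 library (adjusted p = 0.203 and 0.122), and that of Nfib also without the second PWD21 library (adjusted p = 0.208). Lhx2 lost its call with the length and GC offsets as well (adjusted p = 0.0602), where Ctnnb1 passed as higher (adjusted p = 0.0154). The stem cell list counted 1 and 6 with library size alone.

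The wound-activated keratins were among the most abundant genes that changed, and 3 of the 4 in the list rose. Krt17 (chr11:100256215-100261029), a keratin of activated keratinocytes and of the follicle sheath, stood at 53835 and 29336 CPM at PWD14, at 9515 and 4956 CPM at PWD21, and at 5408 and 3637 CPM in the single PWD0 and PWD28 libraries. Both PWD14 libraries lay above all others, 6.0-fold over PWD21 (log2 fold change 2.58 ± 0.34, adjusted p = 2.08e-04). Krt16 stood at 12976 and 8437 against 3392 and 2513 CPM (log2 fold change 1.92 ± 0.24, adjusted p = 1.41e-04). Krt6a, the type II partner, stood at 7927 and 5769 against 2329 and 1527 CPM (log2 fold change 1.89 ± 0.23, adjusted p = 1.43e-04). Its near copy Krt6b was listed at only 149.7 and 159 against 216 and 179 CPM and did not pass the test (adjusted p = 0.156), and reads shared by the 2 copies are not counted. Both Krt6a and Krt16 were lower in the single libraries, where Krt6a read 14.9 CPM at PWD0 and 35.2 CPM at PWD28.

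Genes of the basal layer went both ways. Of 15 tested members, 5 rose and 2 fell (median 0.23), against 2 and 7 with library size alone, 3 and 2 without the first PWD14 library and 3 and 2 without the second PWD21 library. Krt14 rose (log2 fold change 1.82 ± 0.22, adjusted p = 1.40e-04), while its partner Krt5 differed by less than the spread allowed (log2 fold change 0.23 ± 0.17, adjusted p = 0.303). Plec, plectin, the linker of keratin filaments to hemidesmosomes, stood at 539.6 and 237 against 167 and 112 CPM (log2 fold change 1.53 ± 0.32, adjusted p = 0.0027). The other linker, dystonin (Dst), was lower at 57.8 and 55.1 against 129 and 169 CPM (log2 fold change -1.34 ± 0.18, adjusted p = 2.59e-04), as was the hemidesmosome collagen Col17a1 at 343 and 258 against 529 and 509 CPM (log2 fold change -0.73 ± 0.17, adjusted p = 0.00549).

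In the spinous layer, where cells leave the cell cycle and make Krt1 and Krt10, 8 of 16 tested genes fell and 4 rose (median -0.44). Krt10 itself did not pass the test, at 31688 and 34293 against 35671 and 35493 CPM (log2 fold change -0.05 ± 0.19, adjusted p = 0.85). Krt77, a suprabasal partner of Krt10, stood at 252 and 375 against 1306 and 1692 CPM (log2 fold change -2.20 ± 0.22, adjusted p = 5.27e-05), and every PWD21 library was above every PWD14 library. The 4 genes that rose were Sfn, 14-3-3 sigma (8082 and 8054 against 3536 and 2928 CPM, log2 fold change 1.38 ± 0.17, adjusted p = 1.59e-04), Sbsn, suprabasin (8216 and 6319 against 2513 and 2050.2 CPM, log2 fold change 1.73 ± 0.19, adjusted p = 8.92e-05), Ly6d (633 and 394 against 109.7 and 51.5 CPM, log2 fold change 2.72 ± 0.32, adjusted p = 1.21e-04) and Krtdap. The Krtdap call was lost without the second PWD21 library (adjusted p = 0.0931), with library size alone (adjusted p = 0.0847) and with the length and GC offsets (log2 fold change 0.58, adjusted p = 0.31).

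The cornified envelope, the crosslinked protein shell of the outermost cells, held rises and falls. Of 47 tested members, 31 rose and 10 fell (median 1.16). Lce3f, a late cornified envelope gene of the group known for induction in injured skin (chr3:92992217-92993426), stood at 192 and 85.1 CPM at PWD14, at 7.43 and 4.12 CPM at PWD21 and at 0.154 CPM at PWD0. It had the largest rise among genes of at least 10 CPM whose groups did not overlap (log2 fold change 4.58 ± 0.39, adjusted p = 5.17e-05), followed within the family by Lce3c (759 and 391 against 76.0 and 40.5 CPM, log2 fold change 3.35 ± 0.34, adjusted p = 5.77e-05) and Lce3d (626 and 295 against 60.2 and 33.3 CPM, log2 fold change 3.35 ± 0.35, adjusted p = 7.12e-05). Cnfn, cornifelin, stood at 12825 and 8785 against 3188 and 2831 CPM (log2 fold change 1.90 ± 0.21, adjusted p = 8.41e-05). Sprr1b, a small proline-rich envelope protein, stood at 2355 and 1597 against 578 and 361 CPM (log2 fold change 2.13 ± 0.25, adjusted p = 1.02e-04).

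The 10 members that fell were Crnn, Flg2, Hrnr, Rptn and Tchh, which belong to the S100-fused proteins, and Casp14, Ivl, Kprp, Ppl and Sprr4. Kprp, a keratinocyte proline-rich protein, stood at 41.8 and 35.5 against 158 and 169.6 CPM (log2 fold change -2.03 ± 0.18, adjusted p = 5.17e-05). Casp14, the caspase of cornification, stood at 343 and 535 against 1051 and 1458 CPM (log2 fold change -1.45 ± 0.23, adjusted p = 5.44e-04). Hrnr, hornerin, stood at 83.1 and 172 against 301 and 393 CPM (log2 fold change -1.38 ± 0.28, adjusted p = 0.00241). Asprv1, the protease that processes filaggrin, did not pass the test at 4832 and 6944 against 7474 and 7527 CPM (adjusted p = 0.251). The small envelope genes have short transcripts, and with the length and GC offsets 20 members rose and 11 fell, with a median of 0.21. Lce3f kept a log2 fold change of 3.46 there (adjusted p = 6.88e-04) and Lce3c one of 2.02 (adjusted p = 0.00154), while the Lce1 genes are near copies of each other whose reads the counting cannot always place.

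Among proteases that cut the bonds between cornified cells, and their inhibitors, several secreted ones rose and some intracellular inhibitors fell. Klk6, a kallikrein protease, stood at 7713 and 6494 CPM at PWD14, 1656 and 1384 CPM at PWD21 and 24.5 CPM at PWD0 (log2 fold change 2.29 ± 0.18, adjusted p = 5.05e-05). Klk13 followed at 955 and 574 against 231 and 176 CPM (log2 fold change 1.97 ± 0.24, adjusted p = 1.26e-04). Spink5, the main kallikrein inhibitor of skin, stood at 4943 and 4434 against 1837 and 1968 CPM (log2 fold change 1.36 ± 0.16, adjusted p = 1.26e-04). Serpinb12 (87.1 and 128 against 327 and 308 CPM, log2 fold change -1.50 ± 0.19, adjusted p = 1.86e-04) and Serpinb2 (19.5 and 71.9 against 174 and 181 CPM, log2 fold change -1.87 ± 0.40, adjusted p = 0.00314), both intracellular serine protease inhibitors, were lower at PWD14, although Serpinb2 missed the threshold in DESeq2 (adjusted p = 0.0534). Of 17 tested members 7 rose and 3 fell. The counts were 5 and 6 with library size alone.

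Cell junction genes were lower at PWD14 in 13 of 31 tested members and higher in 2 (median -0.39). Higher and lower members numbered 6 and 11 with the length and GC offsets, 0 and 21 with library size alone and 6 and 13 without the second PWD14 library. Dsc1, the desmosomal cadherin desmocollin 1 of suprabasal cells, stood at 145 and 128 CPM at PWD14 and at 604 and 1013 CPM at PWD21 (log2 fold change -2.51 ± 0.23, adjusted p = 5.17e-05). Ocln, the tight junction protein occludin, stood at 14.3 and 20.3 against 71.8 and 111 CPM (log2 fold change -2.32 ± 0.26, adjusted p = 8.99e-05). Dsp, desmoplakin, and Perp, a desmosome membrane protein, both abundant, stood at 1761 and 1319 against 3184 and 3593 CPM (log2 fold change -1.08 ± 0.18, adjusted p = 8.34e-04) and at 1181 and 1527 against 3321 and 4074 CPM (log2 fold change -1.39 ± 0.19, adjusted p = 2.25e-04). In each of the 4 the days did not overlap. An exception was Pkp3, the desmosomal plakophilin 3, at 2108 and 1814 against 1323 and 1159.8 CPM (log2 fold change 0.72 ± 0.16, adjusted p = 0.00429), a call lost with library size alone (log2 fold change 0.17, adjusted p = 0.363) and with offsets for GC content alone (log2 fold change 0.25, adjusted p = 0.136).

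Of the proteins the study stained, the transcripts for E-cadherin and P-cadherin took different courses. Cdh1 stood at 146 and 97.8 CPM at PWD14 and 103 and 109.8 CPM at PWD21, with overlapping groups (log2 fold change 0.26 ± 0.20, adjusted p = 0.31), though its log2 fold change reached 0.65 with the length and GC offsets (adjusted p = 0.0252) and it passed the test without the second PWD14 library (adjusted p = 0.0262). Cdh3 was lower at PWD14, at 61.3 and 60.0 against 110.4 and 82.5 CPM (log2 fold change -0.61 ± 0.19, adjusted p = 0.0203), and lost the call with those offsets (adjusted p = 0.277) and without the first PWD21 library (adjusted p = 0.271).

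Among 9 tested transcription factors of the epithelial-mesenchymal transition, 3 rose and none fell (median 0.71). Zeb2, a repressor of E-cadherin, stood at 7.57 and 6.31 against 3.12 and 2.67 CPM (log2 fold change 1.29 ± 0.34, adjusted p = 0.00925). Tcf3 stood at 45.3 and 37.1 against 27.6 and 18.4 CPM (log2 fold change 0.88 ± 0.23, adjusted p = 0.00984). Twist1 rested on few reads, 15 and 32 at PWD14 and 33 and 10 at PWD21, or 1.60 and 2.66 against 0.944 and 0.535 CPM (log2 fold change 1.52 ± 0.55, adjusted p = 0.0421). None of the 3 calls held without the second PWD21 library (adjusted p = 0.0692, 0.145 and 0.227) or with library size alone. Twist1 also lost its call without the first PWD21 library (adjusted p = 0.0985), without the second PWD14 library (adjusted p = 0.249), with the length and GC offsets (adjusted p = 0.159) and in DESeq2 (adjusted p = 0.147). Tcf4, the most abundant member, did not pass the test at 47.8 and 58.5 against 39.5 and 41.3 CPM (adjusted p = 0.0627, 0.0203 without the first PWD14 library and 0.00651 with the length and GC offsets).

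Matrix proteases and their inhibitors rose in 9 and fell in 4 of 24 tested genes. These numbers changed to 8 and 2 with the length and GC offsets, 4 and 8 with library size alone, 8 and 7 without the second PWD14 library and 4 and 3 without the second PWD21 library. Mmp9, a gelatinase, stood at 105 and 77.7 CPM at PWD14 and at 58.7 and 22.7 CPM at PWD21 (log2 fold change 1.20 ± 0.34, adjusted p = 0.0138). The first PWD21 library came close to the second PWD14 library, and without the second PWD21 library the call was lost (adjusted p = 0.0771). Timp2, a metalloproteinase inhibitor, separated the days more clearly at 301 and 287 against 116 and 74.8 CPM (log2 fold change 1.68 ± 0.21, adjusted p = 1.36e-04). The membrane sheddases Adam8 (2.13 and 3.16 against 14.3 and 12.1 CPM, log2 fold change -2.24 ± 0.34, adjusted p = 4.74e-04) and Adam17 (48.3 and 39.3 against 93.7 and 131 CPM, log2 fold change -1.30 ± 0.21, adjusted p = 6.16e-04) were lower, while Adam10 was higher (292 and 281 against 207 and 214 CPM, log2 fold change 0.51 ± 0.15, adjusted p = 0.0173). The Adam10 call was lost without either PWD21 library (adjusted p = 0.157 and 0.127), and its fold change was -0.05 with library size alone.

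Adhesion and migration genes split 8 to 3 in 26 tested members. The split was 8 and 5 with the length and GC offsets, 2 and 11 with library size alone, 5 and 6 without the first PWD14 library and 5 and 2 without the second PWD21 library. Zyx, zyxin, an actin-bound focal adhesion protein, stood at 77.1 and 55.5 against 22.4 and 14.1 CPM (log2 fold change 1.90 ± 0.25, adjusted p = 2.07e-04). Fermt1, kindlin-1, an integrin activator, stood at 87.2 and 61.4 against 29.3 and 35.4 CPM (log2 fold change 1.26 ± 0.21, adjusted p = 8.06e-04). The hyaluronan receptor Cd44 and the actin crosslinker Flna, the most abundant members, did not pass the test, at 600.0 and 623 against 671 and 717 CPM and 562 and 411 against 421 and 404 CPM, although Flna passed without the second PWD14 library (adjusted p = 0.0293). Tnc, the wound matrix glycoprotein tenascin-C, was lower at PWD14 (46.9 and 37.4 against 96.6 and 87.7 CPM, log2 fold change -1.07 ± 0.19, adjusted p = 9.26e-04).

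Ligands of the EGF receptor family, which drive keratinocyte migration and growth, went both ways, and of 11 tested genes of the axis 5 rose and 4 fell (5 and 2 without the second PWD21 library). Areg, amphiregulin, stood at 233 and 202 CPM at PWD14 and at 40.5 and 21.1 CPM at PWD21 (log2 fold change 2.86 ± 0.27, adjusted p = 5.17e-05). Nrg1, neuregulin 1, stood at 10.02 and 17.2 against 5.49 and 2.14 CPM (log2 fold change 1.82 ± 0.41, adjusted p = 0.00402). Hbegf, the heparin-binding ligand, stood at 124 and 97.6 against 46.6 and 23.7 CPM (log2 fold change 1.70 ± 0.27, adjusted p = 6.27e-04). The others that rose were Ereg and Tgfa. Another ligand, betacellulin (Btc), was lower at 6.72 and 13.7 against 41.9 and 60.6 CPM (log2 fold change -2.23 ± 0.31, adjusted p = 2.66e-04), together with Egf, Epgn and the receptor Erbb3. Those 3 calls were each lost without 1 or more libraries, Epgn without the first PWD21 library (adjusted p = 0.166) and with the length and GC offsets (adjusted p = 0.108), Erbb3 without the second (adjusted p = 0.113), and Egf without the second PWD14 or the second PWD21 library (adjusted p = 0.0516 and 0.101). The receptor Erbb2 stood at 126 and 103 against 139 and 139 CPM (adjusted p = 0.298) and Egfr at 18.8 and 12.9 against 14.0 and 15.1 CPM (adjusted p = 0.608).

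**Figure D3:**
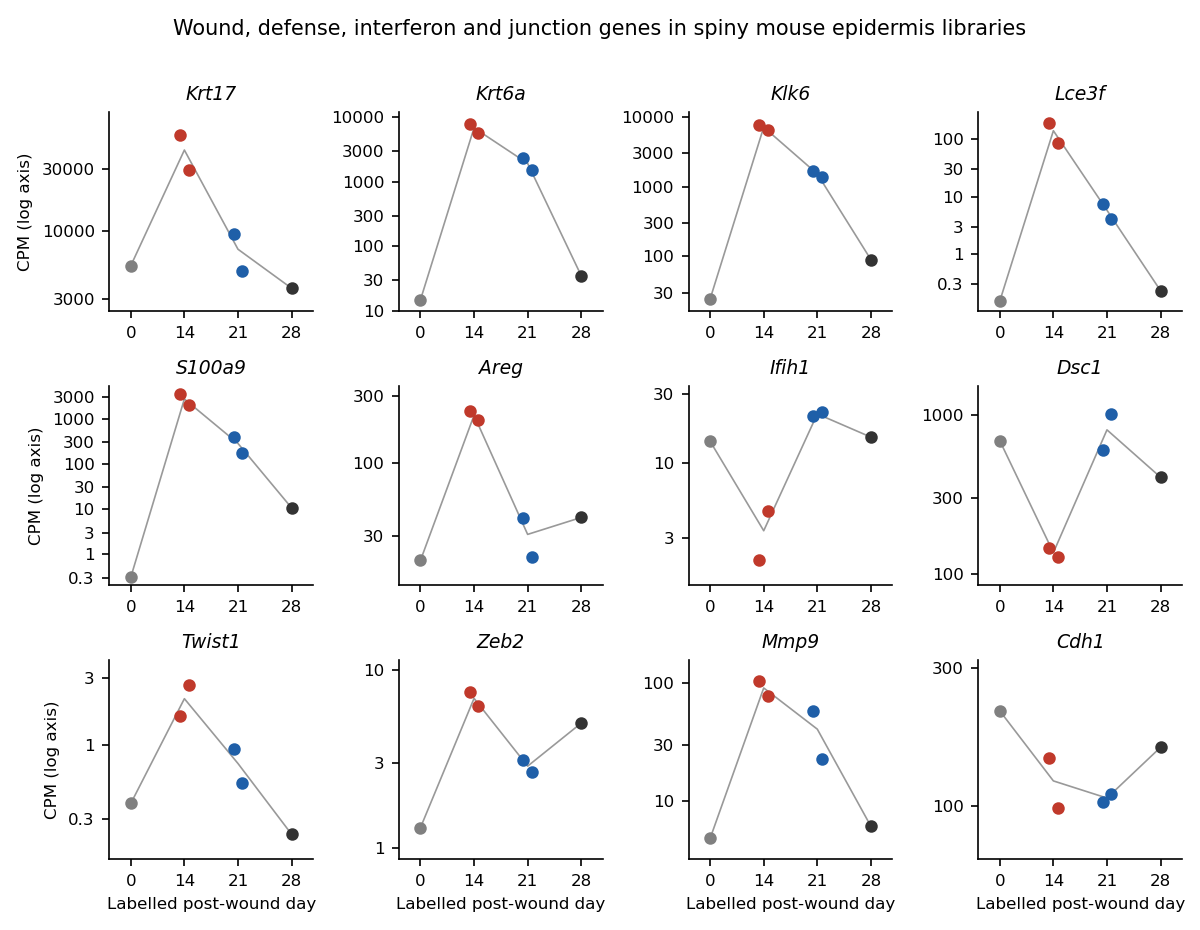
CPM (log axis) of 12 wound, defense, interferon and junction genes in each epidermis library by labelled day (x axis), with a line through the mean of each day. PWD14 libraries are red, PWD21 libraries blue, and the single PWD0 and PWD28 libraries gray and black. Krt17, Krt6a, Klk6, Lce3f, S100a9 and Areg peak at PWD14, Ifih1 and Dsc1 are lowest there, and Cdh1 overlaps between PWD14 and PWD21.

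Innate defense and cytokine genes that passed the test were mostly higher at PWD14. Of 24 tested genes of innate defense and cytokines, 12 rose and 4 fell (median 0.68), and 9 and 4 with the length and GC offsets. S100a9, a subunit of the antimicrobial protein calprotectin (chr3:90692630-90695721), stood at 3444 and 1967 CPM at PWD14, at 393 and 169 CPM at PWD21 and at 0.308 CPM at PWD0 (log2 fold change 3.33 ± 0.37, adjusted p = 8.90e-05), while its partner S100a8 was listed at 0 and 0.166 against 0.0286 and 0.160 CPM and did not pass the filter. Slpi, an antiprotease, stood at 110.2 and 154 against 25.4 and 14.9 CPM (log2 fold change 2.76 ± 0.26, adjusted p = 5.17e-05). Defb1, a beta-defensin, stood at 31.7 and 27.3 against 10.2 and 7.64 CPM (log2 fold change 1.76 ± 0.24, adjusted p = 2.40e-04). The cytokines Il19, Il20 and Il24, which act on keratinocytes through shared receptors, all rose, Il19 from 0.772 and 1.07 CPM at PWD21 to 5.44 and 9.14 CPM at PWD14 (log2 fold change 3.12 ± 0.44, adjusted p = 2.96e-04), although Il20 lost its call without the second PWD21 library (adjusted p = 0.0581) and Il24 in DESeq2 (adjusted p = 0.0683).

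The 4 genes that fell were all of the interleukin 1 family. Il1f9, interleukin 36 gamma, stood at 45.9 and 65.5 against 172 and 205 CPM (log2 fold change -1.69 ± 0.20, adjusted p = 1.25e-04). Il1f8, interleukin 36 beta, stood at 3.20 and 5.98 against 14.4 and 14.5 CPM (log2 fold change -1.55 ± 0.32, adjusted p = 0.00265). They were joined by Il1a and Il1f5, the interleukin 36 receptor antagonist. Il1f6, interleukin 36 alpha, went the other way, at 14.7 and 8.22 against 4.52 and 5.24 CPM (log2 fold change 1.28 ± 0.34, adjusted p = 0.00919), as did Il1b at 64.9 and 66.4 against 43.5 and 49.6 CPM (log2 fold change 0.56 ± 0.18, adjusted p = 0.0223). Il1f6 lost its call with the length and GC offsets (adjusted p = 0.0771) and without the first library of either day (adjusted p = 0.0513 and 0.0618), and Il1b without either PWD21 library (adjusted p = 0.25 and 0.102).

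Interferon-stimulated genes were lower at PWD14 without an exception among those called. Of 34 listed genes, 26 passed the filter, 17 fell and none rose (median -1.68, and -1.67 with 14 lower under the length and GC offsets), though 9 had fewer than 10 counts in both PWD14 libraries. Those 9 passed the filter through PWD21, where a gene that passes has to be higher, so the counts and the median describe the list. With at least 10 counts required in every library, which those 9 cannot meet, 5 fell. Leaving out a library brought exceptions. Isg15 was higher without the first PWD21 library (log2 fold change 1.83), and a different member passed as higher without the second PWD14 library. Ifih1, a sensor of double-stranded RNA (chr2:62595618-62646255), stood at 2.13 and 4.65 CPM at PWD14 and at 21.1 and 22.7 CPM at PWD21 (log2 fold change -2.58 ± 0.33, adjusted p = 1.80e-04). Ddx58, the RNA sensor RIG-I, stood at 0.747 and 1.91 against 12.3 and 12.6 CPM (log2 fold change -3.09 ± 0.41, adjusted p = 2.11e-04). In both genes the PWD21 libraries lay close together and above both PWD14 libraries. The GTPase Mx2, the most abundant member, stood at 81.6 and 57.6 against 177 and 138 CPM (log2 fold change -1.13 ± 0.21, adjusted p = 0.00129). Xaf1 and Herc6 had no count at PWD14 and were at least 4.63-fold and 4.25-fold lower there, from the floor of 3 counts in each library, and the Herc6 call was lost without the second PWD21 library (adjusted p = 0.0528).

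The interferon-stimulated response element, bound by transcription factors of interferon signaling such as Stat2 and Irf9, has a core of GAAA, 2 bases of any kind and GAAA again. These letters were searched in the same 250-base windows on both strands. They occurred in 11 of the 24 list members with a window (45.8%), in 4 of the 11 members with a window that fell (36.4%), and in 821 of all 27025 windows (3.04%). The windows of Stat2 (0.960 and 0.0831 against 4.52 and 6.58 CPM, log2 fold change -3.45 ± 0.67, adjusted p = 0.00183), Gbp3 (4.27 and 3.57 against 9.21 and 7.43 CPM, log2 fold change -1.05 ± 0.33, adjusted p = 0.0238) and Ifit1 (0.320 and 0 against 1.12 and 1.44 CPM, adjusted p = 0.0317) are shown for genes that fell. The calls for Ifit1 and Gbp3 were lost without either PWD21 library (adjusted p = 0.0712 and 0.137 for Ifit1, 0.178 and 0.0556 for Gbp3), that of Ifit1 also without the second PWD14 library (adjusted p = 0.153), both with the length and GC offsets (adjusted p = 0.0874 and 0.2), and both in DESeq2 (adjusted p = 0.0905 and 0.0555). That of Isg15, a ubiquitin-like interferon target, is shown because it holds the letters several times while the gene overlapped between the days at 3.41 and 4.65 against 4.98 and 1.18 CPM (log2 fold change 0.32 ± 0.55, adjusted p = 0.655). They lie at chr10:128270248-128270497 (plus strand), chr3:142559794-142560043 (plus strand), chr19:34640639-34640888 (plus strand) and chr4:156200819-156201068 (minus strand), again with the matches in capitals and written toward the gene.
Stat2: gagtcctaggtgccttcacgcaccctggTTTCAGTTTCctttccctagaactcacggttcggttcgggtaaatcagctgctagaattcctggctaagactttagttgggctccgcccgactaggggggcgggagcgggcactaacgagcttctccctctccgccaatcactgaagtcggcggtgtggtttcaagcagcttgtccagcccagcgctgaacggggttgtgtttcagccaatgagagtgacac
Gbp3: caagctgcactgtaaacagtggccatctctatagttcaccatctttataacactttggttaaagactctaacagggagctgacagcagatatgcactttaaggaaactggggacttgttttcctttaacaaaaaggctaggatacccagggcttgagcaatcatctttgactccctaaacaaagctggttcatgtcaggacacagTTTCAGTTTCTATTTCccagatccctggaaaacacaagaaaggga
Ifit1: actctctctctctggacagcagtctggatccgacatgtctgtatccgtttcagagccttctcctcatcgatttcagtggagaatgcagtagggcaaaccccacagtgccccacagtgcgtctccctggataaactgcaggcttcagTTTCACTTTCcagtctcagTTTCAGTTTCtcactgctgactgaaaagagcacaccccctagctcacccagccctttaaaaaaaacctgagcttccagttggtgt
Isg15: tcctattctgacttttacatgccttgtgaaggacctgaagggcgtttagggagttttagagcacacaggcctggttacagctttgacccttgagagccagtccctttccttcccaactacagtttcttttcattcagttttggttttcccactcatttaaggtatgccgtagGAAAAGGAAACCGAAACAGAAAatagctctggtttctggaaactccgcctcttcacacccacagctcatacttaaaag

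Transcription factors of the immediate early response, which answer growth factors and stress within minutes, rose in 7 and fell in none of 22 tested members (median 0.37). With other settings the numbers were 14 and 1 with the length and GC offsets, 6 and 5 with library size alone, 11 and 0 without the first PWD14 library and 8 and 4 without the second PWD14 library. Klf6, a zinc finger factor, stood at 3792 and 4957 CPM at PWD14 and at 1155 and 859 CPM at PWD21 (log2 fold change 2.18 ± 0.21, adjusted p = 5.17e-05). Ier2 stood at 1036 and 935 against 445 and 258 CPM (log2 fold change 1.55 ± 0.23, adjusted p = 3.82e-04). Jund, an AP-1 subunit, stood at 925 and 789.9 against 403 and 226 CPM (log2 fold change 1.51 ± 0.24, adjusted p = 5.61e-04). The most abundant AP-1 gene, Fos, did not pass the test and leaned the other way, at 2306 and 3076 against 3618 and 4156 CPM (log2 fold change -0.47 ± 0.18, adjusted p = 0.0564). Fos passed as lower without the second PWD14 library (adjusted p = 0.0171), without the first PWD21 library (adjusted p = 0.0387) and in DESeq2 (adjusted p = 0.0369).

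Wnt pathway genes fell in 8 and rose in 4 of 39 tested members (median -0.27), shares under those of all tested genes. The numbers of higher and lower members were 0 and 17 with library size alone, 9 and 8 without the second PWD14 library, 5 and 4 without the first PWD21 library and 2 and 6 without the second PWD21 library. Wif1, a secreted Wnt inhibitor, stood at 0.533 and 1.83 against 12.6 and 10.9 CPM (log2 fold change -3.17 ± 0.44, adjusted p = 2.81e-04). The ligand Wnt16 stood at 0.747 and 4.07 against 19.6 and 26.8 CPM (log2 fold change -3.10 ± 0.44, adjusted p = 3.14e-04). The ligand Wnt4 was higher at PWD14 (256 and 233 against 146 and 119.7 CPM, log2 fold change 0.94 ± 0.17, adjusted p = 0.00106), as was the nuclear effector Tcf7l2 (34.4 and 29.5 against 16.9 and 14.3 CPM, log2 fold change 1.08 ± 0.22, adjusted p = 0.00209). Wnt3, the most abundant ligand, stood at 287 and 366 against 422 and 494 CPM (adjusted p = 0.0617, and 0.0141 without the second PWD14 library), and Axin2, a target of canonical Wnt signaling, at 21.8 and 19.9 against 27.1 and 23.6 CPM (adjusted p = 0.403). Axin2 was higher in both single libraries, at 99.3 CPM at PWD0 and 92.8 CPM at PWD28.

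In the Notch pathway, which guides spinous differentiation, 5 of 17 tested genes rose and 1 fell. These became 2 and 4 with library size alone, 3 and 1 without the first PWD14 library, 8 and 0 without the second PWD14 library, 3 and 0 without the first PWD21 library and 3 and 0 without the second PWD21 library. The targets Hes1 (760.4 and 885 against 451 and 334 CPM, log2 fold change 1.13 ± 0.18, adjusted p = 6.18e-04) and Nrarp (284 and 289.7 against 157 and 104 CPM, log2 fold change 1.19 ± 0.20, adjusted p = 7.15e-04) were higher at PWD14, and Lfng, a glycosyltransferase that tunes the receptors, was lower (9.06 and 6.23 against 14.7 and 14.1 CPM, log2 fold change -0.87 ± 0.28, adjusted p = 0.0253), a call lost without the second PWD14 library (adjusted p = 0.0827) or either PWD21 library (adjusted p = 0.116 and 0.0908). Genes of the TGF-beta and BMP pathways went 5 up and 4 down of 28 tested, shares under those of all tested genes. Here Tgfb1 stood at 72.1 and 50.3 against 26.5 and 13.4 CPM (log2 fold change 1.65 ± 0.30, adjusted p = 0.00115). Id1, a target of BMP signaling, stood at 157 and 248 against 63.5 and 45.4 CPM (log2 fold change 1.95 ± 0.24, adjusted p = 1.41e-04), whereas the ligands Tgfb3 (0.320 and 0.0831 against 6.09 and 4.22 CPM, adjusted p = 3.43e-04) and Bmp4 (0.533 and 1.66 against 8.75 and 6.47 CPM, log2 fold change -2.67 ± 0.49, adjusted p = 0.00128) were lower. The TGF-beta and BMP counts were 7 and 2 with the length and GC offsets, 2 and 11 with library size alone, 4 and 2 without the first PWD21 library and 2 and 2 without the second PWD21 library.

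**Figure D4:**
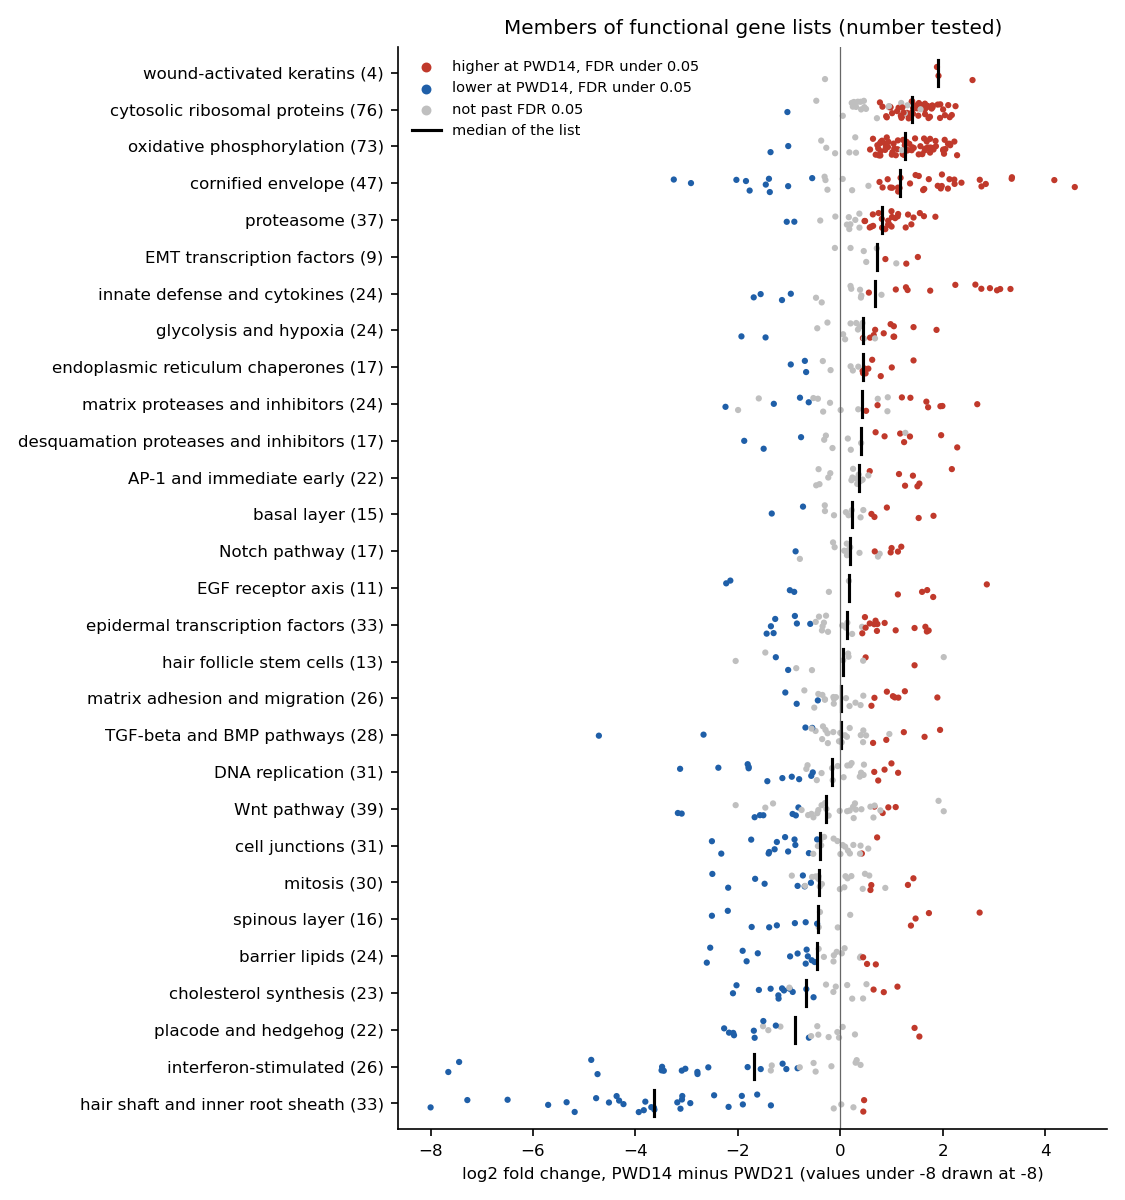
Log2 fold change (PWD14 minus PWD21, x axis, values under -8 drawn at -8) of each tested gene in the main gene lists (rows), with called genes red where higher and blue where lower at PWD14, other genes gray, and a bar at each list's median. The hair shaft and inner root sheath genes (median -3.63) and the interferon-stimulated genes (median -1.68) lie to the left and the wound-activated keratins (median 1.90) to the right.

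Both lists of lipid synthesis held more genes called lower than higher at PWD14, by 1 gene in the barrier list with the length and GC offsets. Of 23 tested cholesterol synthesis genes, 12 fell and 3 rose (median -0.66), with Cyp51 at 68.1 and 75.8 against 263 and 379 CPM (log2 fold change -2.09 ± 0.20, adjusted p = 5.27e-05). Dhcr7, the last enzyme of the pathway's Kandutsch-Russell branch, stood at 31.1 and 40.2 against 133 and 172 CPM (log2 fold change -2.03 ± 0.20, adjusted p = 5.75e-05). The early enzymes Hmgcs1 (543 and 597 against 442 and 569 CPM) and Sqle (360.4 and 443 against 477 and 539.8 CPM) did not pass the test, though Hmgcs1 passed as higher with the length and GC offsets (adjusted p = 0.00418). The cholesterol counts were 5 and 9 with the length and GC offsets, 1 and 16 with library size alone and 2 and 7 without the second PWD21 library. Of 24 tested barrier lipid genes, 12 fell and 3 rose (median -0.46). Higher and lower barrier genes were 7 and 8 with the length and GC offsets, 0 and 19 with library size alone, 1 and 10 without the first PWD21 library and 0 and 6 without the second PWD21 library. Sdr9c7, an enzyme of acylceramide processing, stood at 18.7 and 10.6 against 71.9 and 104 CPM (log2 fold change -2.54 ± 0.28, adjusted p = 8.41e-05). The lipase Lipk stood at 36.3 and 102 against 371 and 516 CPM (log2 fold change -2.61 ± 0.37, adjusted p = 2.81e-04), while Ugcg, glucosylceramide synthase, was higher (292 and 281 against 199 and 170.0 CPM, log2 fold change 0.70 ± 0.16, adjusted p = 0.00441), a call lost without the second PWD21 library (adjusted p = 0.0893).

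Genes of protein synthesis and of mitochondrial respiration were higher at PWD14 in most members, with fewer calls once transcript length and GC content were taken out. Of 76 tested cytosolic ribosomal protein genes, 56 rose and 1 fell (median 1.40), but 31 and 3 with the length and GC offsets (median 0.45). Rpl8 stood at 11913 and 10537 against 4578 and 3908 CPM (log2 fold change 1.46 ± 0.18, adjusted p = 1.38e-04), with a log2 fold change of 0.37 under the offsets. Many of these genes have pseudogene copies, which lowers what can be counted. Of 73 tested nuclear genes of oxidative phosphorylation, 64 rose and 2 fell (median 1.26), against 45 and 2 of 72 with the offsets (median 0.60) and 45 and 5 with library size alone. Atp5b, a subunit of ATP synthase, stood at 3050.3 and 2655 against 1815 and 1618 CPM (log2 fold change 0.79 ± 0.16, adjusted p = 0.00252), and its fold change was 0.97 with the offsets.

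The proteasome changed less with the offsets. Of 37 tested subunits, 26 rose and 2 fell (median 0.81), and 27 and 2 with the offsets, where the median was 0.65, and 14 and 4 with library size alone. Psma7, a subunit of the core, stood at 2263 and 2019 against 749.6 and 688 CPM (log2 fold change 1.64 ± 0.16, adjusted p = 5.27e-05). Glycolysis and hypoxia genes rose in 11 and fell in 2 of 24 tested, and endoplasmic reticulum chaperones in 9 and 3 of 17. Glycolysis and hypoxia counts turned to 3 and 5 with library size alone and 5 and 2 without the second PWD21 library. Chaperone counts turned to 1 and 5 with library size alone, 4 and 3 without the first PWD21 library and 2 and 2 without the second PWD21 library. Aldoa, an enzyme of glycolysis, stood at 2458 and 2406 against 1493 and 1323 CPM (log2 fold change 0.85 ± 0.16, adjusted p = 0.00137). Slc16a3, the lactate exporter, stood at 61.7 and 47.7 against 27.2 and 14.3 CPM (log2 fold change 1.43 ± 0.28, adjusted p = 0.00184). Egln3, an oxygen-sensing hydroxylase, was lower (13.7 and 11.8 against 54.4 and 46.1 CPM, log2 fold change -1.93 ± 0.22, adjusted p = 9.24e-05), as was the chaperone Hyou1, at 72.4 and 65.4 against 134 and 146 CPM (log2 fold change -0.97 ± 0.17, adjusted p = 8.92e-04).

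**Figure D5:**
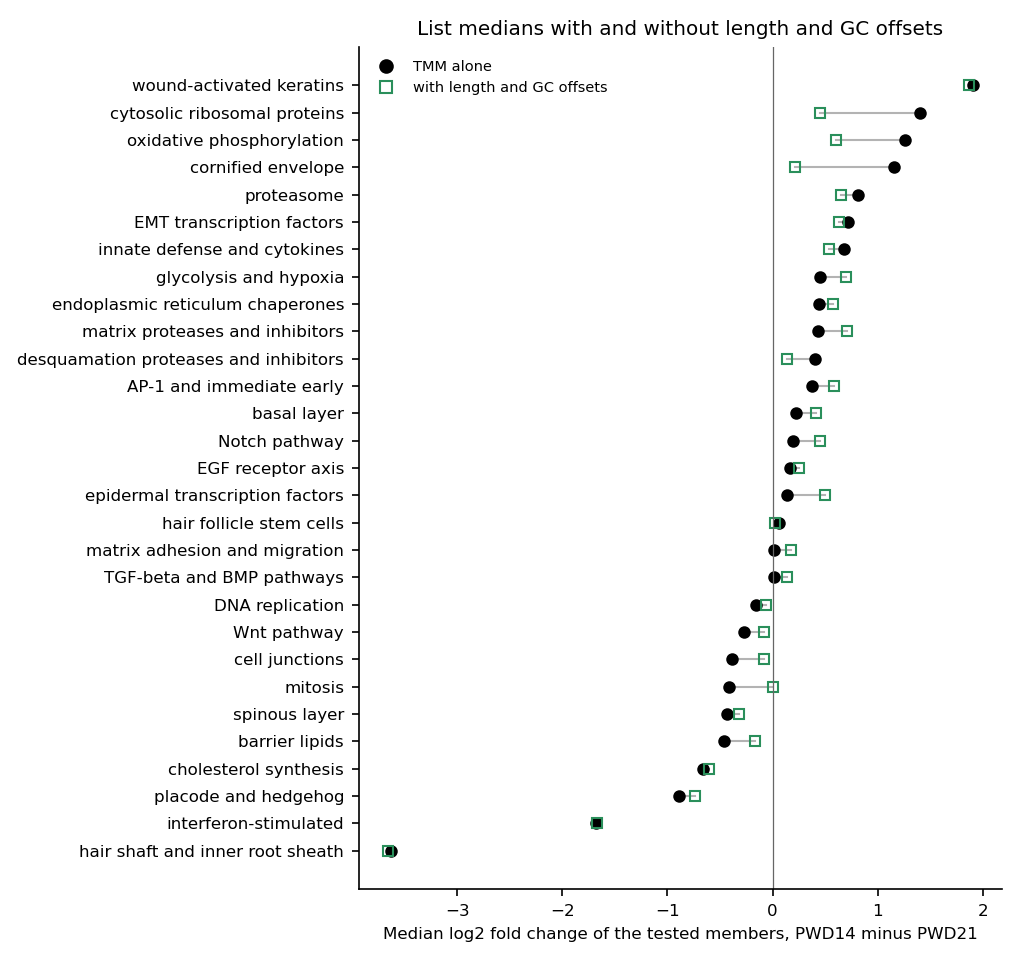
Median log2 fold change (PWD14 minus PWD21, x axis) of the tested members of each functional list (rows), from the fit with TMM alone (filled circles) and from the fit with length and GC offsets (open squares). The cornified envelope moves from 1.16 to 0.21 and the ribosomal proteins from 1.40 to 0.45, while the hair shaft and inner root sheath list stays at -3.63 and -3.66.

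Cell cycle genes did not move as a block. In the mitosis list 8 of 30 tested genes fell and 4 rose (median -0.41). Higher and lower mitosis genes were 7 and 4 with the length and GC offsets, 1 and 18 with library size alone, 2 and 5 without the first PWD14 library, 1 and 5 without the first PWD21 library and 1 and 4 without the second PWD21 library. Kif11, the spindle motor, stood at 4.16 and 2.08 against 15.1 and 20.9 CPM (log2 fold change -2.50 ± 0.37, adjusted p = 3.85e-04). Birc5, survivin, stood at 19.3 and 14.5 against 6.46 and 7.70 CPM (log2 fold change 1.32 ± 0.27, adjusted p = 0.00237), in opposite directions. In the DNA replication list 11 of 31 fell and 5 rose. Higher and lower replication genes were 0 and 17 with library size alone, 4 and 7 without the first PWD21 library and 2 and 6 without the second PWD21 library, and 7 and 8 with the length and GC offsets. Rrm2, a ribonucleotide reductase subunit, stood at 3.63 and 2.16 against 11.8 and 19.5 CPM (log2 fold change -2.38 ± 0.40, adjusted p = 8.01e-04). The replication clamp Pcna stood at 79.1 and 82.3 against 43.4 and 40.7 CPM (log2 fold change 1.0 ± 0.17, adjusted p = 8.63e-04). Mki67, the proliferation marker, did not pass the test at 26.1 and 26.6 against 37.1 and 36.8 CPM (adjusted p = 0.0889), but passed as lower with upper quartile factors (adjusted p = 0.043) and with library size alone (adjusted p = 0.002).

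Several of the largest differences lay outside the lists. Gap43, a growth-associated protein known from growing nerve endings, stood at 55.5 and 17.9 CPM at PWD14 and at 3.35 and 0.802 CPM at PWD21, with 1.08 CPM at PWD0 and no count at PWD28 (log2 fold change 4.01 ± 0.56, adjusted p = 2.76e-04). Both PWD14 libraries were above the others, the first well above the second. Sox4, a transcription factor of progenitor cells, stood at 204 and 131 against 26.1 and 19.0 CPM (log2 fold change 2.94 ± 0.25, adjusted p = 5.05e-05). Fam78b stood at 43.5 and 39.4 against 4.75 and 4.60 CPM (log2 fold change 3.20 ± 0.23, adjusted p = 5.05e-05). Scand1 (211 and 111 against 26.7 and 12.4 CPM, log2 fold change 3.07 ± 0.36, adjusted p = 1.07e-04) and Tbkbp1, an adaptor of the kinase Tbk1 (34.1 and 16.6 against 4.43 and 1.34 CPM, log2 fold change 3.04 ± 0.45, adjusted p = 3.87e-04), completed the rises.

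The scaling and the offsets decided further calls among the genes above. With library size alone Aldoa, Atp5b, Il1b, Il1f6, Mmp9, Pcna, Tcf7l2, Ugcg and Wnt4 no longer passed as higher (adjusted p from 0.0504 to 0.976). Asprv1, Axin2, Cd44, Erbb2, Fos, Krt10, Krt6b, Shh, Sqle and Wnt3 passed as lower there (adjusted p from 0.00121 to 0.0107), as did Ctnnb1, Krt15 and Krt79 (adjusted p = 0.0143, 0.0467 and 0.0335). Upper quartile factors ended the calls for Krt75, Nfib, Sox21 and Twist1 (adjusted p from 0.0535 to 0.108) and gave calls for Shh and Wnt3 (adjusted p = 0.0496 and 0.0285). Offsets for length alone ended those for Erbb3, Il1b and Lfng (adjusted p = 0.051, 0.273 and 0.116) and made Krt5 pass as higher (adjusted p = 0.0253). Offsets for GC content alone ended those for Sox21 and Tcf3 (adjusted p = 0.309 and 0.112).

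Markers of other cell types moved in part with the days, and their part in the results above was not tested. The summed level of the sebocyte list was 223 and 57.0 CPM at PWD14 and 325 and 329 CPM at PWD21, and 5 of 9 tested genes fell, with none higher. Lower members numbered 2 with the length and GC offsets, 8 with library size alone and 8 without the first PWD14 library. Far2, a fatty acyl reductase of wax ester synthesis and a member of this list, stood at 4.16 and 0.831 against 39.1 and 46.3 CPM (log2 fold change -4.13 ± 0.41, adjusted p = 5.59e-05). Elovl3, a fatty acid elongase of the sebaceous gland, stood at 122 and 24.4 against 163 and 151 CPM (log2 fold change -1.06 ± 0.48, adjusted p = 0.0921). It passed as lower when the first PWD14 library, the first PWD21 library or the second PWD21 library was left out (adjusted p = 3.94e-07, 0.0453 and 0.0354), and with library size alone (adjusted p = 0.015). The melanocyte list had 1 lower gene of 7 tested, and its sums, 18.6 and 26.1 CPM at PWD14 and 39.5 and 23.7 CPM at PWD21, overlapped.

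Fibroblast markers summed to 1053 and 1044 CPM at PWD14 and 1908 and 1926 CPM at PWD21, with 4 of 18 tested genes higher and 2 lower, shares under those of all tested genes. These numbers were 3 and 4 with library size alone, 3 and 4 without the first PWD14 library, 7 and 2 without the second PWD14 library and 11 and 2 without the first PWD21 library. Postn, periostin, alone stood at 340.2 and 483 against 1147 and 1418 CPM. The collagen gene Col1a1 stood at 108 and 71.3 against 67.0 and 7.43 CPM, with the first PWD21 library just under the PWD14 libraries and the second far below (log2 fold change 1.29 ± 0.62, adjusted p = 0.111). Without the first PWD21 library 11 fibroblast genes were higher at PWD14, among them Col1a1 (log2 fold change 3.63), which also passed without the second PWD14 library (adjusted p = 0.0313). These levels lay far under those of the dermis libraries given above.

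Blood and immune markers were scarce apart from those of Langerhans cells, the dendritic cells of the epidermis. The Langerhans list summed to 1977 and 1810.0 CPM at PWD14 and 1289 and 1203 CPM at PWD21. Cd207, langerin, overlapped at 132 and 153 against 139 and 139.8 CPM (log2 fold change 0.10). It passed as lower with library size alone (log2 fold change -0.45, adjusted p = 0.0415) and as higher with offsets for GC content alone (log2 fold change 0.40, adjusted p = 0.0422). Of the 6 tested Langerhans genes 3 were higher and none lower, and 1 and 1 with the length and GC offsets and 1 and 3 with library size alone. Macrophage markers summed to 72.1 and 77.9 CPM at PWD14 and 60.2 and 67.5 CPM at PWD21, and 6 of 11 tested genes were higher and 1 lower (median 1.58), with 4 and 1 under the length and GC offsets and 6 and 3 without the second PWD14 library. Aif1, an actin-binding protein of macrophages, stood at 17.4 and 20.2 against 4.69 and 6.63 CPM (log2 fold change 1.83 ± 0.28, adjusted p = 4.28e-04). C1qb, a complement subunit made by macrophages, stood at 9.28 and 7.81 against 1.94 and 1.82 CPM (log2 fold change 2.22 ± 0.34, adjusted p = 5.02e-04). Csf1r, the receptor for colony stimulating factor 1, was the lower one at 8.32 and 14.8 against 34.3 and 40.3 CPM (log2 fold change -1.60 ± 0.27, adjusted p = 7.84e-04). T cell markers summed to 87.9 and 68.2 CPM and 58.6 and 49.6 CPM, with 3 of 10 tested genes higher and 1 lower, and 2 and 4 with library size alone. Of 12 neutrophil markers, 3 passed the filter and summed levels of the list were 163 and 174 CPM at PWD14 and 128 and 117 CPM at PWD21. Nearly all of the sum was Il1r2, a decoy receptor for interleukin 1, at 157 and 169.9 against 124 and 113 CPM (log2 fold change 0.52 ± 0.16, adjusted p = 0.0191). The Il1r2 call was lost without either PWD21 library (adjusted p = 0.096 and 0.214) and with offsets for length alone (adjusted p = 0.139), and its log2 fold change turned to -0.03 with library size alone. Ltf, lactoferrin, was higher at 4.37 and 2.49 against 0.458 and 0 CPM (adjusted p = 0.0022), and Mmp8, a neutrophil collagenase, did not pass the test at 1.07 and 0 against 1.66 and 2.46 CPM (adjusted p = 0.07, 0.00302 as lower without the first PWD14 library and 0.0209 with library size alone). The neutrophil receptors Csf3r (0 and 0.498 against 0.429 and 0.160 CPM) and Cxcr2 (0.533 and 0.581 against 0.458 and 0.160 CPM) and the other untested members were near 0 in all 4 libraries. The part of these cells in the S100a9 difference was not tested. Hba-a1, an alpha globin gene of red cells, stood at 30.4 and 41.4 against 8.98 and 0.748 CPM (log2 fold change 2.79 ± 0.56, adjusted p = 0.00221) and has a near copy. Its call was lost in DESeq2 (adjusted p = 0.0852) and with the length and GC offsets (log2 fold change 1.75, adjusted p = 0.069). Fabp4, a fatty acid binding protein best known from adipocytes and macrophages, was abundant, at 8672 and 6716 CPM at PWD14, 1303 and 983 CPM at PWD21 and 22.7 CPM at PWD0 (log2 fold change 2.81 ± 0.21, adjusted p = 5.05e-05), while the adipocyte genes Adipoq (0.213 and 0.332 against 0.172 and 0.214 CPM) and Plin1 (0 and 0.166 against 0 and 0 CPM) were near 0.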

How the data were processed

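Bulk RNA was sequenced as single-end reads without strand information, so a gene and an overlapping or antisense partner cannot be told apart. The deposited values are raw read counts per gene, which the authors made by aligning reads to the laboratory mouse genome mm10 with STAR (2.4.1d in the submitters' processing notes) and counting them on RefSeq genes with HTSeq 0.6.0, where reads that fit several places were not counted. The 5 summary lines of each file were left out of library sizes. Counts of the 2 PWD14 and 2 PWD21 libraries (24500 genes) were fitted here with edgeR 4.0.16 in R 4.3.3: filterByExpr, TMM factors, the quasi-likelihood F test on the 4 libraries, two-sided, with Benjamini-Hochberg adjustment and a threshold of 0.05. Every adjusted p in the text is from this fit unless another setting is named, and the SE is the log2 fold change divided by the square root of F. CPM values use TMM factors over the 6 epidermis libraries. The replicate libraries of each day differed by more than counting noise (chi-square over degrees of freedom 33.0 at PWD14 and 28.3 at PWD21), and the common biological coefficient of variation was 0.186. Counting error is the only error that the floor covers.

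Lengths and GC content came from GENCODE transcripts of the laboratory mouse and were found for 97.5% of tested genes. The longest transcript paired with a RefSeq accession was taken, or else the longest one. Gene positions are RefSeq's on GRCm38. The gene lists and the members were chosen with earlier results of these data known. The rule for named genes took the 10 largest changes in each direction among calls averaging 10 CPM or more with the days fully separated, in each functional list the pair with the highest mean and up to 2 called genes in each direction with a mean of at least 5 CPM, the genes the study stained, and the defining and most abundant marker of each cell type. Aif1, Axin2, Bmp4, C1qb, Casp14, Defb1, Egfr, Gapdh, Gbp3, Hbegf, Hrnr, Ifit1, Il19, Il1b, Il1f6, Isg15, Jund, Krt31, Krt33b, Krt34, Krt6a, Krt6b, Lef1, Ltf, Mki67, Mmp8, Pgk1, S100a8, Shh, Sostdc1, Sprr1b, Stat2, Tgfb3, Trp63 and genes named without a CPM value were added once their values had been seen. Some genes that the rule names are not reported here. For this comparison the fit was tested on simulated data (12662 genes). There 99 genes were changed by a log2 fold change of 1, 99 by 2, and 12464 were unchanged. The fit recovered 49.5% of the genes changed by 1 and 98% of those changed by 2, and called 0.0321% of the unchanged ones. The share of unchanged genes called in data where 46.6% of genes are called, as here, was not tested. Alternatives were other scalings, DESeq2 1.42.0, other edgeR tests, other filters, larger sets of libraries, offsets and leaving out each library. The 13 laboratory mouse libraries were not analysed here.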

Additional observations from a re-analysis of the deposited data

How the results depend on the processing

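Across all genes, RLE factors, upper quartile factors, DESeq2, the edgeR likelihood ratio and exact tests, the earlier edgeR quasi-likelihood version, no filter, at least 10 counts in every library and the 6 epidermis libraries in one fit gave between 5361 and 6421 calls, against 6002. No gene called in one direction was called in the other under these settings. With library size alone there were 7056 calls, 1335 higher and 5721 lower, and list members called numbered 195 higher and 312 lower. Named genes that changed sign there were Adam10 (-0.0480), Cd207 (-0.45), Ctnnb1 (-0.50), Il1r2 (-0.0279), Krt15 (-0.39), Krt75 (-0.10), Krt79 (-0.54), Nfib (-0.0576), Sox21 (-0.0853) and Trp63 (-0.44). In the fit of 12 libraries 1942 genes were higher, and 115 list members were lower, 20 cornified envelope genes higher and 5 hair shaft genes lower. With at least 10 counts in every library, which removes genes near 0 at PWD14, 11 hair shaft and 5 interferon-stimulated genes were lower. Against a fold of 1.5 (glmTreat) 3203 genes were called, 1617 higher and 1586 lower, with 120 list members lower. Length offsets left 39 oxidative phosphorylation and 28 ribosomal genes higher, and length and GC offsets 20 cornified envelope and 31 ribosomal genes, with 5 genes turned from higher to lower calls.

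Leaving out 1 library gave between 3470 calls (without the second PWD21 library) and 6635 calls (without the second PWD14 library), 1762 to 3304 higher and 1708 to 3331 lower. List members called ranged from 379 to 547, with 239 to 351 higher and 140 to 196 lower, and named genes called from 126 to 144. Higher members ranged from 31 to 32 in the cornified envelope, 55 to 64 in oxidative phosphorylation and 43 to 57 in the ribosomal list, and lower members from 24 to 27 in the hair shaft list and 12 to 17 in the interferon list. A day left with 1 library is assumed to vary like the other. No paired analysis was possible because the labels give no replicate numbers. Depth limits genes near the floor of 3 counts, and with 2 libraries a day an exact permutation test of a single gene could not reach the threshold.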

Other observations

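Transcription factors of epidermal fate, a list drawn and counted with the others above but not described there, rose in 14 and fell in 7 of 33 tested genes (median log2 fold change 0.14). The numbers were 3 and 16 with library size alone, 9 and 8 without the first PWD14 library and 6 and 6 without the second PWD21 library. Runx1, a factor active in hair and wound epidermis, stood at 96.3 and 73.2 CPM at PWD14 and at 31.7 and 23.6 CPM at PWD21 (log2 fold change 1.66 ± 0.21, adjusted p = 1.75e-04, edgeR). Cebpb, a leucine zipper factor of differentiation and inflammation, stood at 766 and 596 against 272 and 156 CPM (log2 fold change 1.73 ± 0.24, adjusted p = 2.81e-04). Foxn1, a factor that hair differentiation needs, was lower at PWD14 (5.12 and 5.23 against 13.9 and 13.7 CPM, log2 fold change -1.35 ± 0.28, adjusted p = 0.00281), as was Ahr, the aryl hydrocarbon receptor (13.2 and 16.2 against 36.7 and 47.1 CPM, log2 fold change -1.44 ± 0.23, adjusted p = 5.92e-04). Trp63, the master factor of stratified epithelia, overlapped at 180.4 and 161 against 166 and 164 CPM (adjusted p = 0.583), and passed as higher with the length and GC offsets (adjusted p = 0.0261) and as lower with library size alone (adjusted p = 0.0333).

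Among the called genes, the single libraries of unwounded skin and of PWD28 wounds, which allow no test, mostly lay on the same side of both PWD14 libraries as PWD21. Of the 3011 genes higher at PWD14, 84.9% read lower in both single libraries than in both PWD14 libraries, against 36% of all tested genes. Of the 2991 genes lower at PWD14, 83.9% read higher in both, against 40%. The highest of the 6 libraries was a PWD14 library for 37.8% of tested genes and the PWD28 library for 13.6%. The shares among called genes use the PWD14 libraries that also chose those genes. High shares follow in part from that choice, so they describe the called genes only.

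Some genes that keratinocytes use heavily read near 0 in all 6 epidermis libraries. Gapdh, a glycolysis enzyme, was listed at 1.17 and 1.33 CPM at PWD14 and 0.944 and 1.02 CPM at PWD21, and Pgk1 at 1.49 and 0.748 CPM and 1.63 and 1.39 CPM. The share of reads in the files set aside for low alignment quality, which includes reads with several placements, was 59.5% and 59.7% at PWD14 and 52.6% and 50.03% at PWD21.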
